A study of Mus musculus with 16 samples.

Results

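Sorted atrial-type heart muscle cells of the mouse were compared between late gestation and the second day after birth. The cells are the fraction with high surface ITGA6 (integrin α6, also called CD49f), and the comparison comprised all 8 microarrays of the 16 in the series whose titles name that fraction, 4 of embryonic day 15.5 (EH) and 4 of postnatal day 2 (PH). The other 8 microarrays hold the ITGA6-low fraction of the same stages (EL and PL), which is rich in ventricular cells, and serve here only to show where the ITGA6-high cells differ. All hearts came from wild-type CD1 mice. For EH, pools of 20 to 30 embryonic hearts were dissociated and the viable cells positive for ERBB-2, a receptor tyrosine kinase on the surface of cardiomyocytes, were sorted for strong CD49f staining with a FITC antibody. For PH, pools of 15 neonatal hearts were first depleted of cells other than myocytes on magnetic columns and then sorted for strong CD49f staining with a PE antibody, without ERBB-2. Each sorting experiment yielded at least 50000 cells, and 10 ng of RNA was amplified, labelled with Cy3 and hybridised to a single-colour Agilent microarray. A pool mixes many hearts, so each microarray is an average over animals.

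The stage of the cells cannot be told apart from the sorting strategy or from the slide. Every PH microarray lay on slide 2, whereas EH samples 2, 3 and 8 lay on slide 1 and EH sample 6 lay on slide 3, which was scanned on another day. Every difference below is therefore a difference between the EH and PH libraries as prepared. In such bulk samples, fewer cells of a type and less RNA per cell cannot be told apart either.

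Atrial cardiomyocytes form the thin-walled upper chambers of the heart. They differ from ventricular cells in their myosin light chains, their calcium pump regulators and their ion channels, and they release natriuretic peptide. Around birth the heart is known to turn from glucose and lactate towards fatty acids as fuel, to exchange fetal for adult isoforms of contractile proteins, and to leave the cell cycle.

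The 4 genes chosen as markers of atrial cells were higher in the ITGA6-high than in the ITGA6-low fraction in every sample of both stages. *Sln*, which encodes the atrial calcium pump inhibitor sarcolipin, gave signals of 51919.9, 43993, 46760.4 and 42999 in EH samples 2, 3, 6 and 8 and of 128108, 147361, 149729.6 and 161929 in PH samples 2, 3, 4 and 5, and all signals below follow this order of samples. *Nppa*, the gene of atrial natriuretic peptide, measured 220436, 226948, 226948 and 248519.6 in EH and 298009.8, 272331, 323858 and 323858 in PH. *Myl7*, the atrial myosin light chain 2a, measured 158706, 141261, 134012 and 131892 in EH and 182559, 226948, 248519.6 and 212779.5 in PH. For each of the 3 genes the EH and PH signals did not overlap. *Nr2f1*, a transcription factor of atrial cells, measured 6009, 5980.3, 5242 and 5272 in EH and 2032, 2375, 2084 and 2199.6 in PH. In the ITGA6-low fraction *Sln* averaged 675 ± 289 in EL and 2940.4 ± 2799 in PL, *Nppa* 11661 ± 3050.5 and 17539 ± 10466, *Myl7* 9441 ± 495 and 4807 ± 4236 and *Nr2f1* 96.5 ± 31.1 and 42.1 ± 21.1 (SD, n = 4). The lowest ITGA6-high signal lay above the highest ITGA6-low signal of its stage for each of the 4. The pan-cardiac *Tnnt2* (cardiac troponin T) averaged 122365 ± 4809.7 (SD, n = 4) in EH and 143383 ± 12238 (SD, n = 4) in PH, and *Nkx2-5*, a cardiac transcription factor, averaged 6255 ± 189 and 5835 ± 895, with overlapping signals for both genes. *Tnnt2* did not pass the test (adjusted p = 0.0955) except without PH sample 5 (0.0485).

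Signals are the authors' quantile-normalized values turned back from the log2 scale, and they are not comparable between probes. A probe was called when limma's Benjamini-Hochberg adjusted p over all 55681 probes was at most 0.05 and the change at least 3-fold. By this rule 723 probes (1.30%) were higher and 1167 (2.10%) were lower in PH than in EH. With normexp background correction and an added offset of 50, which raises dim signals and so shrinks their folds, 183 and 237 were called. Among the higher probes 708 showed no overlap between the 4 EH and the 4 PH signals, as did 1119 of the lower ones. The call itself favours such separation, so these counts add no support, and the share over all probes is not given here. Genes named below for the size of a called change had to show no overlap, so for them it adds nothing. Of the lower probes, 674 were not well above background on any PH microarray, and of the higher ones 231 were not well above background on any EH microarray, so that their fitted folds have an unmeasured side. Set against the lowest signal well above background on each microarray, 205 and 57 of these kept at least 3-fold. Folds of named genes written as "at least" are these bounds. The share of probes well above background ranged from 40.9% to 46.5% in EH and from 37.0% to 40.6% in PH, and 0 spots were flagged as saturated. The median log2 change over all probes was 0.03.

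For descriptions of gene groups, each of 23981 named genes was represented by its brightest probe. Of these genes, 1.56% were called higher and 3.73% lower at 3-fold or more, and 12.7% rose and 12.5% fell at an adjusted p of at most 0.05 with any fold. Rose and fell are used below in the latter sense. The median log2 change of all named genes was 0.02, and 12664 genes stood well above background in all 4 EH or all 4 PH samples, which is called well measured below. The shares above include genes that were not well measured, whereas most genes of most lists were. Over the lists other than the markers of other cell types, the medians ran from 0.86 for fatty acid oxidation genes down to -1.98 for ventricular genes.

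**Figure D1:**
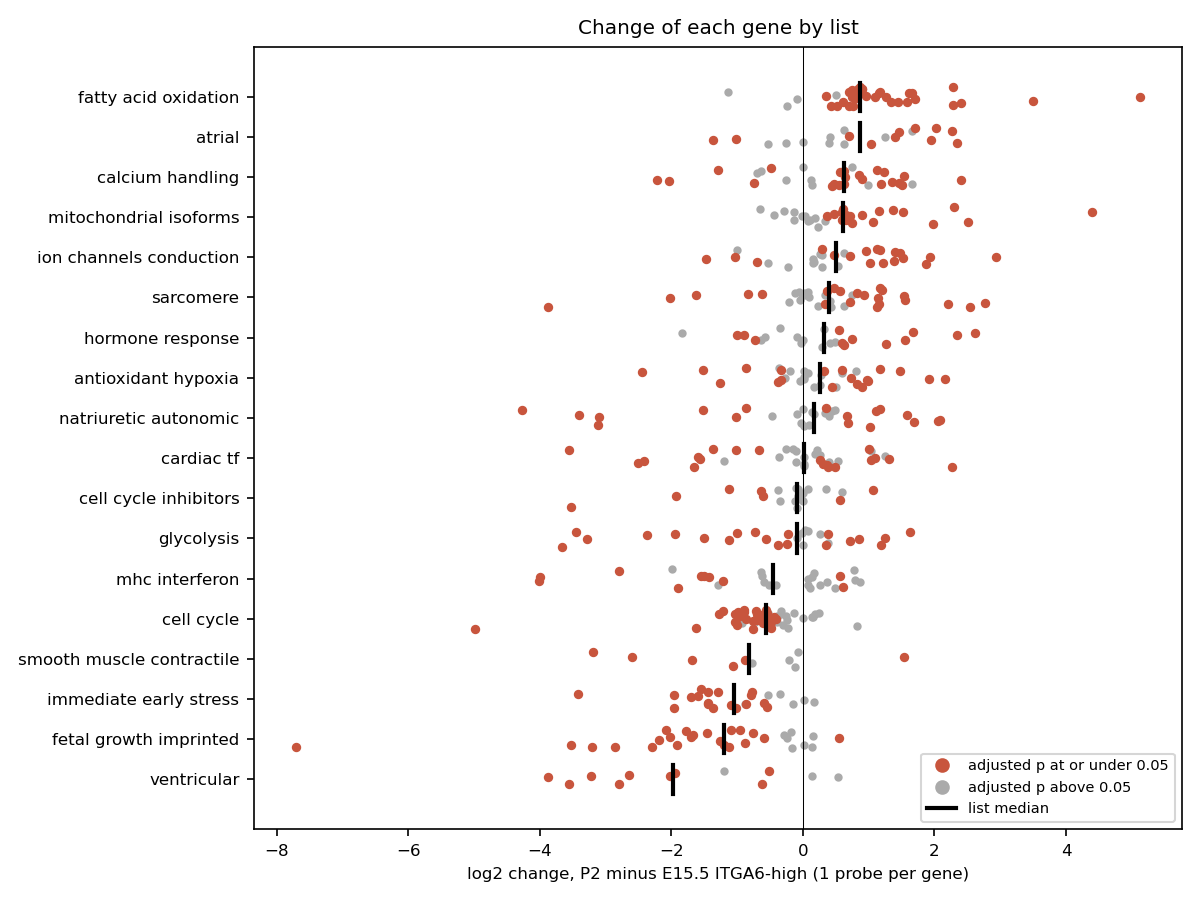
Log2 change from EH to PH of each gene (horizontal axis, points), by gene list (rows ordered by median, black bars), 1 probe per gene. Red points passed an adjusted p of 0.05. Nearly all fatty acid oxidation genes lie to the right of 0 and most immediate-early, fetal growth and ventricular genes to the left.

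The gene that gives the fraction its name was measured by 2 probes that moved in opposite directions. Integrin α6 pairs with a β chain to bind laminin. The opening 30 bases of both 60-base probes are shown because the direction of *Itga6* depends on which probe is read.
Itga6 probe at chr2:71690633-71690692 (mm9, plus strand): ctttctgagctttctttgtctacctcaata
Itga6 probe at chr2:71694756-71694815 (mm9, plus strand): gagaatgagaacctgggaggtcttgttgtt
The upstream probe measured 2478, 4056, 3322 and 3907 in EH and 7373, 9947, 9140.1 and 11021 in PH (log2 change 1.46 ± 0.177 (SE), adjusted p = 4.9e-05). The downstream probe measured 10907, 14096, 11449.5 and 11037 in EH and 6427, 5709, 6686 and 6975 in PH (log2 change -0.88 ± 0.144 (SE), adjusted p = 0.000597). The stages did not overlap for either probe.
In the ITGA6-low fraction the upstream probe averaged 2289 ± 255 in EL and 8682 ± 1666 in PL (SD, n = 4), and the downstream probe 625 ± 119 and 285 ± 46.1. The downstream probe was thus the one with the wide gap between the fractions at both stages. It is annotated to the RefSeq mRNA of *Itga6*, and the upstream probe to an Ensembl transcript. The median over both probes gave a log2 change of 0.29 (adjusted p = 0.178). Of 593 listed or named genes, 152 had a further well-measured probe, and in 7, *Itga6* among them, such a probe passed the test against the direction of the probe used. The others were *Adcy5*, *Fkbp1a*, *Gnas*, *Hcn2*, *Nebl* and *Pdlim5*. *Erbb2*, the gene of the surface protein that only EH cells were sorted for, fell from 901, 915, 748 and 879 to 546, 622, 580.4 and 465 (1.56-fold, adjusted p = 0.000382).

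A pair of transcripts from opposite strands of the cardiac myosin locus also moved in opposite directions. *Myh7* encodes the slow β myosin heavy chain, the main heavy chain of the fetal ventricle, and *Mhrt* is a long noncoding RNA made from the other strand of that locus. Their probes are shown because they read different strands of neighbouring stretches.
Mhrt probe at chr14:55592952-55593011 (mm9, plus strand): aagcaagggtgtgtctaaaaaccatggcac
Myh7 probe at chr14:55589581-55589640 (mm9, minus strand): atgaggagtagctcttgtgctacccagctc
*Mhrt* measured 324, 205, 187 and 289 in EH and 23461, 8841, 10456 and 7723 in PH, a 46.5-fold rise (log2 change 5.54 ± 0.34 (SE), adjusted p = 1.6e-07). *Myh7* measured 63832, 74245, 73223 and 105435 in EH and 5367, 5167, 6026 and 4807 in PH, a 14.6-fold fall (log2 change -3.87 ± 0.13 (SE), adjusted p = 1.2e-09). Neither gene had overlapping groups. *Myh6*, the fast α heavy chain encoded next to *Myh7*, gave means of 246760.2 ± 14879.7 in EH and 256346 ± 25178 in PH (SD, n = 4) and a log2 change of 0.05 ± 0.0976 (SE). Quantile normalization gives every microarray the same highest values, up to 323858, and this probe ranked from 3 to 8 on the EH and PH microarrays, so that little room was left for a rise to show. With the 75th percentile scaling, which sets no such ceiling, its log2 change was 0.23 (adjusted p = 0.393). A dimmer *Myh6* probe averaged 7185 ± 668 in EH and 12564 ± 2274 in PH (SD, n = 4), without overlap (log2 change 0.80, adjusted p = 0.144).

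The genes with the largest rises had diverse known roles. *Podn*, podocan, a leucine-rich proteoglycan of the extracellular matrix, measured 41.9, 28.4, 38.1 and 25.6 in EH and 3656, 3766, 5773 and 3332 in PH (123-fold, adjusted p = 2.9e-08). This was the largest rise among the genes given here that were well above background at both stages. *Sbk3*, which encodes a kinase of the SH3-binding domain family, went from 272, 281, 258 and 228 to 21203, 22042, 35169 and 19430.0 (91.8-fold, adjusted p = 4.5e-06). *Plin4*, a perilipin that coats lipid droplets, went from 64.9, 50.1, 74.1 and 57.8 to 3719.8, 2605, 2998 and 3995 (53.7-fold, adjusted p = 2.9e-09). All PH signals of these 3 genes were many times the highest EH signal. *Mlana*, best known as a melanocyte antigen, rose 85.2-fold from 83.0 ± 17.4 to 7102 ± 1707 (SD, n = 4, adjusted p = 4.5e-07). *Fndc5*, the membrane precursor of irisin, rose 28.1-fold from 767 ± 46.5 to 21857 ± 4307 (adjusted p = 1.1e-10). *Scd4*, a desaturase that introduces a double bond into fatty acids, rose 29.3-fold from 26.1 ± 7.52 to 743 ± 72.2 (adjusted p = 5.5e-09). A pair of further genes was not well above background on any EH microarray. *Ntsr2*, a neurotensin receptor, was at least 40.4-fold higher in PH, with measured means of 5.75 ± 2.81 and 478 ± 61.2 (adjusted p = 1.5e-07), and *Scgb1c1*, a secretoglobin, was at least 7.89-fold higher, with means of 3.55 ± 0.16 and 94.7 ± 23.9 (adjusted p = 1.2e-08). Such a bound sets the mean of the bright group against the lowest signal that counted as well above background on the dim microarrays.

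More atrial genes rose than fell. All 20 genes of the atrial list had a probe and 19 were well measured. Of the list, 9 rose, 2 fell and 9 did not pass the test, and the median log2 change was 0.86. *Itga6* counted among the risers through its upstream probe, while the downstream probe, the brighter one over EH and PH alone, fell as given above. *Dkk3*, a secreted protein of the dickkopf family, measured 6539.7, 6055, 5584 and 6932 in EH and 24088, 22350.2, 28625 and 27669 in PH (4.08-fold, adjusted p = 0.000798). *Slc24a4*, a potassium-dependent sodium-calcium exchanger, rose 5.06-fold (adjusted p = 0.00267) and *Fgf12*, an intracellular factor that binds sodium channels, rose 3.85-fold (adjusted p = 0.0134). *Kcnj3*, a subunit of the acetylcholine-gated potassium channel, rose 2.64-fold (adjusted p = 0.0216), and *Tbx5*, a chamber transcription factor, had a log2 change of 1.03 (adjusted p = 0.000944). The calls of *Fgf12* and *Kcnj3* were lost with the sample number as a block (adjusted p = 0.137 and 0.224) and when both number 2 samples were left out, a setting chosen after seeing the data (0.0525 and 0.102), and that of *Kcnj3* also without EH sample 2 or PH sample 5 (adjusted p = 0.0583 and 0.0575). The fallers were *Nr2f1* (2.59-fold, adjusted p = 0.0078) and *Hey1*, a Notch target (log2 change -1.02, adjusted p = 2.4e-05). *Nr2f2*, the related COUP-TFII, had a log2 change of -0.25 (adjusted p = 0.51) and passed as lower with only the 8 EH and PH microarrays (adjusted p = 0.0292) and under normexp background correction (0.0256).

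For *Sln*, *Nppa* and *Myl7* the call depended on the setting. With all 16 microarrays the log2 changes were 1.66 ± 0.55, 0.40 ± 0.30 and 0.62 ± 0.44 (SE), with adjusted p of 0.0555, 0.467 and 0.434. *Nppa* held the highest value that quantile normalization allows on PH samples 4 and 5, so that its change is limited from above, and with the 75th percentile scaling it was 0.53 (adjusted p = 0.248). With only the 8 EH and PH microarrays, the adjusted p were 0.000115, 0.011 and 0.00866, and 14 atrial genes rose. *Sln* also passed with all 16 microarrays under normexp background correction (adjusted p = 0.022), among well-measured probes only (0.0207), as the median over its probes (0.0396) and with slide as a random block (0.0493).

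**Figure D2:**
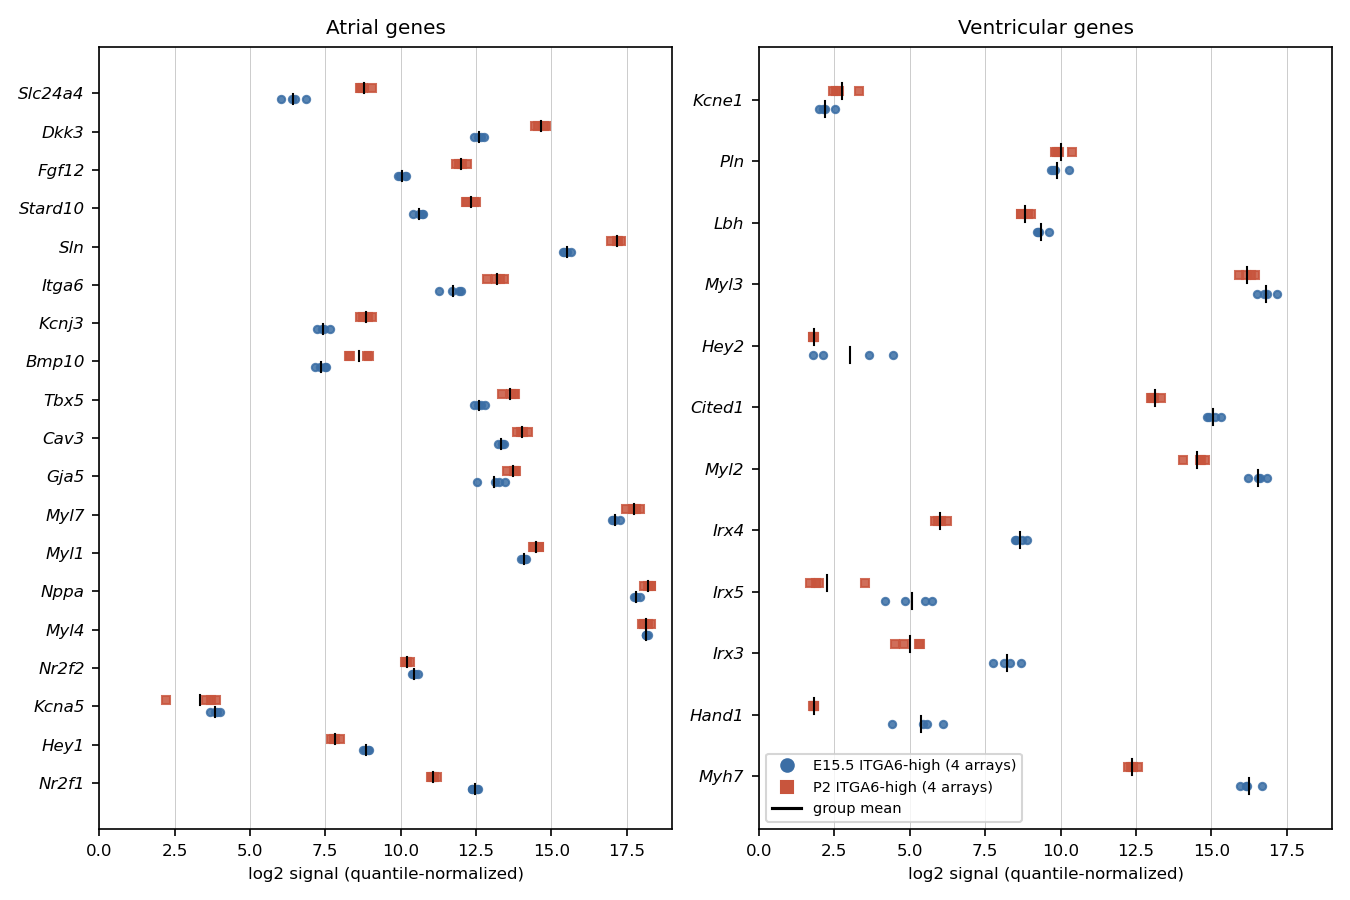
Log2 signals of 19 atrial (left) and 12 ventricular genes (right) on each EH (blue circles) and PH microarray (red squares), with group means as bars and genes ordered by their change. PH lies to the right of EH for most atrial genes, and to the left for the ventricular genes from *Cited1* down.

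Ventricular genes fell in ITGA6-high cells. Of 12 genes on the list, all with a probe and 10 well measured, 0 rose and 9 fell, 5 of them at least 3-fold as measured on both sides. The median was -1.98. *Myl2*, the ventricular myosin light chain 2v, measured 76173, 99886, 94958 and 119033 in EH and 25390.5, 17234, 28506 and 25674 in PH (4.05-fold lower, adjusted p = 6.2e-07). *Irx3*, an Iroquois transcription factor of the conduction system and trabeculae, measured 216, 319, 279.9 and 412 in EH and 22.9, 28.3, 39.1 and 40.7 in PH (9.37-fold lower, adjusted p = 2.5e-07). The lowest EH sample was above the highest PH sample for both genes, as the rule that picked them required. *Irx4*, a ventricular identity factor, had a log2 change of -2.64 (adjusted p = 2.2e-08) and *Cited1*, a transcriptional coregulator, of -1.94 (adjusted p = 9.0e-08). *Irx5* and *Hand1* were not well above background on any PH microarray and were at least 2.09-fold and at least 2.60-fold lower. *Pln*, the calcium pump inhibitor phospholamban of ventricular cells, averaged 950.1 ± 192 and 1045 ± 202 (SD, n = 4, adjusted p = 0.734).

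Genes of the contractile apparatus moved both ways. Of 38 sarcomere genes, 17 rose and 5 fell (3 with the sample number as a block), with a median of 0.40. *Tnni3*, the adult cardiac troponin I, measured 17187, 15881, 16215 and 16962 in EH and 47413, 49667, 48611 and 47413 in PH (2.92-fold, adjusted p = 3.4e-09). *Tnni1*, the fetal slow skeletal isoform, averaged 49749.8 ± 3972 and 43023 ± 5184 (SD, n = 4) and did not pass the test (adjusted p = 0.236). The M-band proteins *Myom2* and *Myom3* rose 5.81-fold and 6.82-fold (adjusted p = 7.2e-09 and 0.000278), although *Myom3* was well above background on only 2 EH microarrays. *Acta1*, the skeletal α-actin of fetal hearts, fell 3.10-fold (adjusted p = 0.00086). *Actc1* and *Myl4* were at 291590.0 ± 12839.5 and 289649 ± 5574 in EH and at 267692 ± 16105 and 289313 ± 27367 in PH. Among 10 genes of the smooth muscle contractile programme, which fetal cardiomyocytes share, 1 rose and 5 fell. Markers of smooth muscle cells and pericytes also fell, 6 of 8, as given with the other cell types below. *Acta2*, smooth muscle α-actin, measured 24559.6, 28745, 21425 and 22412 in EH and 3648, 3522, 3200.3 and 6229.9 in PH (6.03-fold lower, adjusted p = 4.9e-06). *Cnn1*, calponin, fell 3.22-fold (adjusted p = 1.8e-05), *Actg2*, an enteric actin, was at least 3.30-fold lower and not well above background in PH, and *Smtn*, smoothelin, rose (log2 change 1.54, adjusted p = 0.00029).

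Genes of calcium handling rose more often than they fell. All 31 of the list were well measured, and 17 rose and 5 fell (8 with only the 8 EH and PH microarrays), with a median of 0.62. *Atp2a2*, the calcium pump of the sarcoplasmic reticulum, measured 18382, 16509, 14233 and 16441 in EH and 47282, 42999, 57649 and 42849.8 in PH (2.90-fold, adjusted p = 7.4e-07). *Ryr2*, the calcium release channel, rose 2.35-fold (adjusted p = 2.6e-06), and *Casq2*, which stores calcium beside it, rose 1.56-fold (adjusted p = 0.0037). The T-type calcium channels moved apart. *Cacna1g* measured 305, 219, 143 and 218 in EH and 1616, 986, 1121 and 901 in PH (5.27-fold higher, adjusted p = 2.1e-05), and *Cacna1h* measured 501, 454, 399 and 463 and 129, 127, 88.0 and 102 (4.11-fold lower, adjusted p = 8.9e-07). The groups were separate for both channels, as the rule that picked them required. The median over all *Cacna1h* probes gave only -0.76 (adjusted p = 0.556). *Itpr2*, a calcium release channel gated by inositol trisphosphate, fell 4.65-fold (adjusted p = 5.7e-07).

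Among 30 genes of ion channels and conduction, 23 of which were well measured, 15 rose and 3 fell. *Abcc8*, the sulfonylurea receptor of atrial KATP channels, measured 6827, 5623, 5902 and 5603 in EH and 26671, 18104, 23921 and 19962 in PH (3.67-fold, adjusted p = 5.5e-07). Its partner pore *Kcnj11* had a log2 change of 1.13 (adjusted p = 6.8e-06), whereas *Abcc9* and *Kcnj8*, the other KATP pair, fell (log2 changes -0.69 and -1.03, adjusted p = 0.0126 and 0.00423). *Abcc9* and *Kcnj8* also mark pericytes and are counted among the 6 of 8 smooth muscle and pericyte markers that fell. *Kcnip2*, a subunit of the transient outward channel, rose 7.63-fold (adjusted p = 0.000403) but was well above background on only 1 EH microarray. *Gja5*, the atrial connexin 40, had a log2 change of 0.63 (adjusted p = 0.293), and *Hcn4*, the pacemaker channel, was not well above background on any EH or PH microarray.

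Genes of fatty acid metabolism rose almost throughout. All 37 genes of the list were well measured, and 32 rose, 8 of them at least 3-fold, with a median of 0.86. The count that fell was 0 (1 without PH sample 3, under normexp background correction or among well-measured probes only). *Plin5*, the perilipin that links lipid droplets to mitochondria, measured 20.2, 34.5, 26.0 and 35.4 in EH and 856, 865, 1175 and 1085 in PH (34.8-fold, adjusted p = 6.0e-09). *Acsl1*, which activates long-chain fatty acids, measured 1432, 1547, 1572 and 1722 in EH and 7221, 7891, 8399 and 9796 in PH (5.29-fold, adjusted p = 5.5e-09). *Ucp2*, an inner-membrane carrier, measured 265, 237, 315 and 365 in EH and 1140.1, 1461, 1501 and 1615 in PH (4.87-fold, adjusted p = 2.9e-07). The stages did not overlap for any of them, as the rule that picked them required. The carnitine transferases that admit fatty acids to mitochondria rose less, *Cpt1b* (muscle form) 1.52-fold and *Cpt1a* (liver form) 1.82-fold (adjusted p = 0.000135 and 1.9e-05), and *Pdk4*, which shuts off pyruvate oxidation, rose 1.68-fold (adjusted p = 0.0011). *Fabp3*, the cardiac fatty acid binding protein, went from 39239.6 ± 248 to 117791 ± 9948 (adjusted p = 1.2e-08). *Ppara*, a nuclear receptor for fatty acids, rose (log2 change 0.84, adjusted p = 9.9e-06) and its relative *Ppard* did not pass the test (-0.10, adjusted p = 0.709).

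Mitochondrial genes and muscle isoforms of respiratory subunits rose too. Of 33 genes, 32 of them well measured, 21 rose and 0 fell. The count that fell was 2 under normexp background correction. It was 1 without PH sample 5, with the sample number as a block or among well-measured probes only. *Mb*, the oxygen store myoglobin, measured 1689, 1610.2, 2177 and 2485 in EH and 42143, 34493, 56111 and 34853 in PH (21.0-fold, log2 change 4.39 ± 0.16 (SE), adjusted p = 2.8e-09). *Cox8b*, the heart and muscle isoform of a cytochrome oxidase subunit, measured 13107, 13682, 12775 and 14623 and 50151, 53048, 53417 and 56228 (3.93-fold, adjusted p = 7.2e-09), while its ubiquitous counterpart *Cox8a* averaged 104375 ± 3698 and 107236 ± 7296 (SD, n = 4, adjusted p = 0.777). The same held for *Cox6a2* and *Cox6a1*. The muscle form *Cox6a2* rose 1.54-fold (adjusted p = 0.000313) and the ubiquitous *Cox6a1* had a log2 change of -0.13 (adjusted p = 0.453). *Cox7a1* and *Cox7a2*, the muscle and ubiquitous forms of another subunit, rose 2.09-fold and 1.51-fold (adjusted p = 1.0e-06 and 0.000621). With each microarray scaled to its 75th percentile, *Cox6a2* and *Cox7a2* no longer passed (adjusted p = 0.154 and 0.192). *Perm1*, a muscle regulator of mitochondrial genes, and *Ckmt2*, the mitochondrial creatine kinase, rose 5.69-fold and 4.89-fold (adjusted p = 6.6e-08 and 9.9e-08), and the cytosolic *Ckm* rose 2.24-fold (adjusted p = 4.7e-06).

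Of 27 genes of glucose handling, 7 rose and 13 fell. *Slc2a1*, the glucose transporter GLUT1 of fetal cells, measured 3254, 3524, 2771 and 2935 in EH and 331, 267, 311 and 376 in PH (9.75-fold lower, adjusted p = 2.3e-08). *Slc2a4*, the insulin-sensitive GLUT4, measured 2686, 2709.9, 2439 and 2603 in EH and 8001, 6903, 8983 and 8369.9 in PH (3.08-fold higher, adjusted p = 7.7e-08). For both transporters the stages were fully separate. The lactate exporter *Slc16a3* fell 12.7-fold, *Pfkfb3*, which drives phosphofructokinase, fell 10.9-fold and the transporter *Slc2a3* fell 5.19-fold (adjusted p = 2.0e-07, 2.7e-07 and 0.000283). Among the enzymes, the muscle forms *Pfkm*, *Pgam2* and *Eno3* rose (log2 changes 1.25, 0.85 and 1.18, adjusted p = 7.2e-08, 5.1e-05 and 2.9e-08), whereas *Pgam1* and *Eno1*, counterparts in other tissues, fell (-1.50 and -1.13, adjusted p = 1.3e-08 and 3.5e-07). *Aldoa* and *Hk2*, also forms of muscle, did not pass the test (0.04 and 0.38, adjusted p = 0.855 and 0.083), nor did the lactate dehydrogenase *Ldha* (0.07, adjusted p = 0.796).

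**Figure D3:**
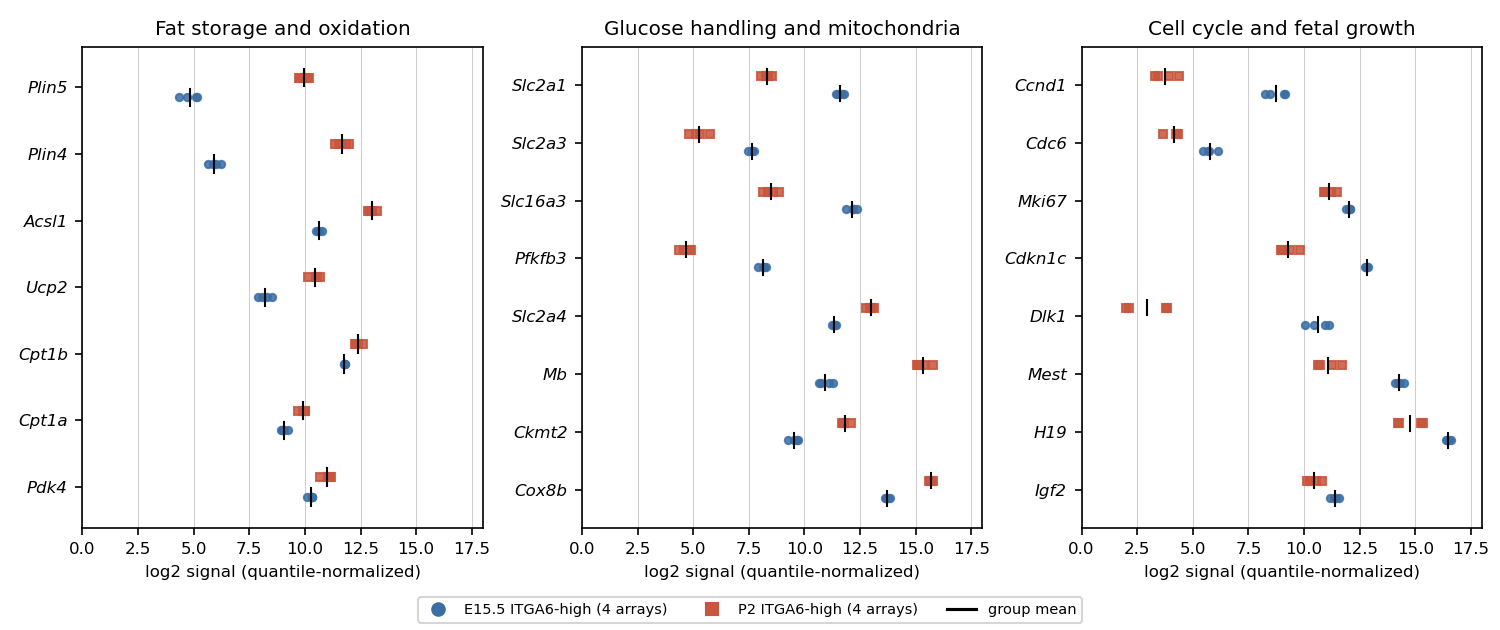
Log2 signals of 23 genes of fat use, glucose handling, mitochondria, the cell cycle and fetal growth on each EH (blue circles) and PH microarray (red squares), with group means as bars. The groups are separate for all 23 genes, and the distance is widest for *Dlk1*, *Plin4* and *Plin5*.

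Genes of the cell cycle fell, most of them by less than 3-fold. Of 55 cell cycle genes, 49 of them well measured, 0 rose and 32 fell, 2 of them at least 3-fold, with a median of -0.56. With each microarray scaled to its 75th percentile 20 fell, and without both number 2 samples 21. *Mki67*, the proliferation antigen Ki-67, measured 4249, 4291, 4150.3 and 3777 in EH and 2353, 2872, 1973 and 1916 in PH (1.83-fold lower, adjusted p = 0.0087). Its lowest EH signal was above its highest PH signal. *Ccnd1*, the cyclin D1 that starts the cycle, measured 353, 304, 548 and 563 in EH and 9.84, 15.3, 10.7 and 20.8 in PH, where it was well above background on 1 microarray (31.5-fold lower, adjusted p = 2.9e-08). Cyclin D3 (*Ccnd3*) fell less (log2 change -0.95, adjusted p = 7.7e-06) and cyclin D2 (*Ccnd2*) averaged 2949.5 ± 143 and 3249 ± 355 (SD, n = 4, adjusted p = 0.621). *Cdc6*, which licenses replication origins, fell 3.07-fold, with 1 PH microarray well above background (adjusted p = 0.00651). Of 20 inhibitors of the cycle, 2 rose and 5 fell (median -0.09). The 2 rises are near the share of all named genes that rose (12.7%). *Cdkn1a* (p21) averaged 940.4 ± 95.2 and 939.7 ± 119.7 (SD, n = 4), *Btg2*, an antiproliferative factor, fell 3.79-fold (adjusted p = 6.3e-06) and *Cdkn2c* (p18) rose (log2 change 1.07, adjusted p = 8.7e-05).

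The promoters of 2 of the fallen genes are shown as examples of the search for CCAAT and TTTGAA, letters that cell cycle promoters are known for, on both strands, with matches in capitals (each run is the 250 bases before the start of the gene, 5′ to 3′, RefSeq, GRCm38.p6).
Mki67 at chr7:135716380-135716629, minus strand: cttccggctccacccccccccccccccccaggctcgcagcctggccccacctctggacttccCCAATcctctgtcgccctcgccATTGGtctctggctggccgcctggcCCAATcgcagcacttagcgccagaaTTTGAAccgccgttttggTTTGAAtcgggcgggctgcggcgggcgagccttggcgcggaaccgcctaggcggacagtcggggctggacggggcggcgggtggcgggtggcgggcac
Plk1 at chr7:122159185-122159434, plus strand: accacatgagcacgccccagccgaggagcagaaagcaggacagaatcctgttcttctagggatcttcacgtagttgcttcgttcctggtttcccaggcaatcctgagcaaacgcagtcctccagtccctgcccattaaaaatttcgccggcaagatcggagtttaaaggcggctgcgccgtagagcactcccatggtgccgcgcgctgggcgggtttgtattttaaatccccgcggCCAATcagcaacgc
The *Mki67* run held CCAAT 3 times and TTTGAA 2 times, and that of *Plk1*, a mitotic kinase with a log2 change of -0.89 (adjusted p = 0.00608), held CCAAT 1 time and TTTGAA 0 times. Over windows of 300 bases, which add 50 bases after the start, 18 of the 26 fallen cell cycle genes with a promoter in the table held CCAAT (69.2%) against 41.1% of all 27025 genes, and 9 held TTTGAA (34.6% against 20.2%). The whole list, fallen or not, held CCAAT in 70.5% and TTTGAA in 45.5% of its 44 genes with a promoter. AAGGTCA, the letters that estrogen-related receptors bind, was in 1 of the 26 risen fatty acid genes with a promoter (3.85%). It was in 2 of the 15 risen mitochondrial genes (13.3%), against 5.38% of all genes. The whole lists, risen or not, held it in 3.45% and 11.5% of their genes with a promoter. These shares describe letters in a window only.

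Fetal growth genes and imprinted genes fell. Of 29 genes, 25 of them well measured, 1 rose (0 without both number 2 samples, a setting chosen after seeing the data) and 21 fell, 12 of them at least 3-fold, and the median was -1.21. *Dlk1*, an imprinted ligand-like protein of the Notch family, measured 1389, 1069, 2224 and 1984 in EH and 4.02, 14.1, 13.9 and 4.37 in PH, where it was not well above background on any microarray. It was at least 99.8-fold lower (adjusted p = 2.4e-06), the largest bound among the genes given here. *Cdkn1c*, the imprinted cell cycle inhibitor p57, measured 7322, 6884, 7068 and 7455 in EH and 498, 908, 509 and 658 in PH (11.5-fold lower, adjusted p = 2.6e-08). *Mest*, an imprinted hydrolase, measured 17658, 20438, 19096 and 23106 in EH and 3329, 1690.2, 1597 and 2478 in PH (9.20-fold lower, adjusted p = 6.2e-07). In both cases the stages did not overlap, as the rule that picked these genes required. The neighbours *Igf2*, the fetal growth factor, and *H19*, a noncoding RNA expressed from the other parental allele, fell less, 1.95-fold and 3.27-fold (adjusted p = 0.000301 and 0.000832), and *Igf2bp3*, an RNA-binding protein of fetal cells, fell 2.14-fold (adjusted p = 0.00168). *Dcn*, decorin of connective tissue, fell 7.24-fold (adjusted p = 5.4e-05).

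Genes of hormone response and of natriuretic and autonomic signalling changed in both directions. Among 23 genes of hormone response, 9 rose and 3 fell (5 without EH sample 3). Over all named genes 12.7% rose and 12.5% fell, so that the 3 falls are near the share of all genes. *Klf9*, a target of thyroid hormone and glucocorticoids, measured 122, 108, 119 and 113 in EH and 567, 515, 727 and 559.9 in PH (5.09-fold, adjusted p = 1.5e-07). *Nr3c2*, the mineralocorticoid receptor, measured 20.0, 6.06, 14.9 and 10.1 in EH, where 1 microarray was well above background, and 20.7, 43.5, 48.8 and 43.4 in PH (3.20-fold, adjusted p = 0.0135). PH sample 2 lay close to the highest EH signal, and with the sample number as a block the call was lost (adjusted p = 0.107). Of 29 genes of natriuretic and autonomic signalling, 22 were well measured, 10 rose and 7 fell. *Adrb1*, the main cardiac β-adrenergic receptor, measured 315, 218, 171 and 229.9 in EH and 1027, 925, 925 and 993 in PH (4.24-fold, adjusted p = 5.5e-07). The α-adrenergic *Adra1b* and the muscarinic *Chrm2* also rose (log2 changes 2.05 and 1.70, adjusted p = 1.3e-05 and 2.1e-05). *Prkar2b*, a regulatory subunit of protein kinase A, fell 10.6-fold (adjusted p = 1.8e-07). *Nppb*, the gene of B-type natriuretic peptide, fell 2.02-fold (adjusted p = 0.00816), while *Npr3*, the clearance receptor, and *Pcsk6*, a convertase that acts on the processing protease of the peptides, were at least 2.27-fold and at least 4.35-fold lower and not well above background in PH (adjusted p = 0.000282 and 5.4e-07).

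Of 35 genes on a list of cardiac transcription factors, their cofactors and a secreted ligand, 10 rose and 9 fell. *Tbx20* rose and *Tbx3*, a factor of the conduction system, fell (log2 changes 1.10 and -1.60, adjusted p = 8.2e-06 and 5.4e-07), and *Sox11*, a factor of immature cells, fell 5.66-fold, with 2 PH microarrays well above background (adjusted p = 6.6e-07). *Prdm16*, a factor of compact ventricular myocardium, was at least 1.52-fold lower and not well above background in PH (means 26.2 ± 11.4 and 4.76 ± 1.70, SD, n = 4, adjusted p = 3.7e-05). Among 33 genes of oxidant defence and low oxygen, 12 rose and 7 fell (4 with the 75th percentile scaling). *Adm*, the vasodilator adrenomedullin, measured 549, 442, 395 and 435 in EH and 2068, 1785, 2138 and 2111 in PH (4.47-fold, adjusted p = 4.0e-06). *Ndrg1*, a gene raised in low oxygen, fell 5.48-fold (adjusted p = 9.8e-06) and *Nqo1*, a quinone reductase, rose 3.77-fold (adjusted p = 0.000253).

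Immediate-early genes, which respond within minutes to stimuli and are known to respond to cell dissociation, were lower in PH. Of 24 with a probe, 22 were well measured, 0 rose and 18 fell, with a median of -1.05. *Atf3*, a stress-induced transcription factor, measured 5526, 5564, 5894 and 7186 in EH and 589.8, 557, 388 and 779.8 in PH (10.7-fold lower, adjusted p = 8.2e-07). *Egr1* measured 4718, 4605, 5955 and 4461 and 1886, 1421, 748 and 1263 (3.89-fold lower, adjusted p = 0.000177). *Klf2* and *Ier2* fell 3.88-fold and 3.26-fold (adjusted p = 0.00195 and 3.1e-05). The cells of both stages were dissociated and sorted by different routes, and the part of handling in these signals was not tested. Against 12.7% and 12.5% of all named genes, 2 rose and 8 fell of 28 genes of antigen presentation and interferon response, 18 well measured. Only 1 rose without EH sample 2 or 3 or PH sample 4 or 5, and under normexp background correction. The same count was found with the sample number as a block, with only the 8 EH and PH microarrays and among well-measured probes only. *B2m*, the light chain of class I molecules, fell (log2 change -1.55, adjusted p = 7.7e-06), and *Ifitm3*, *Ifitm1*, *Psmb8* and *Psmb9* were at least 5.60-fold, at least 3.36-fold, at least 1.82-fold and at least 2.60-fold lower and not well above background on any PH microarray.

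The largest falls after *Dlk1* included genes of blood and vessel cells. *Hbb-bt*, an adult β-globin, measured 6874, 2265, 13999 and 2920.5 in EH and 109, 73.8, 109.8 and 90.6 in PH (53.1-fold lower, adjusted p = 3.4e-05). *Hbb-b2* fell 58.0-fold (adjusted p = 7.1e-05). Globin genes share near-identical stretches, so their probes may read each other. The embryonic globin *Hbb-y*, the myeloid adaptor *Tyrobp*, the blood and endothelial factor *Lyl1*, the scavenger receptor *Stab1*, and *Plac8* were well above background on all EH and no PH microarrays and were at least 13.9-fold, at least 13.9-fold, at least 21.3-fold, at least 20.5-fold and at least 14.2-fold lower (adjusted p = 2.4e-06, 0.000377, 2.2e-05, 6.0e-05 and 9.7e-08). *Tyrobp* measured 100.2, 68.3, 1492 and 239.8 in EH, and without EH sample 6, the highest, its bound was 7.36-fold. *Gm1987* and *Calcr*, the calcitonin receptor, showed the same pattern and were at least 21.2-fold and at least 15.8-fold lower (adjusted p = 8.2e-07 and 2.3e-11).

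Markers of several other cell types fell with the stage. Of 15 endothelial markers, 0 rose and 12 fell (median -3.98), and their summed signal was 7150.3, 5481, 19588 and 18435 in EH and 1799, 2435, 2416 and 3286 in PH. A sum leans on its brightest probe, which is named for that reason and says nothing of which transcript was more abundant. The brightest here was that of *Egfl7* at both stages, and *Cdh5*, *Tie1*, *Emcn* and *Esam*, well above background on all EH microarrays, were so on no PH microarray. Of 14 fibroblast markers, 1 rose and 12 fell (median -2.78), with sums of 20234, 14651, 23237 and 22348 in EH and 5964, 9133, 9358 and 7367 in PH. The brightest probe was that of *Vim* in EH and of *Fbln1*, the only gene that rose, in PH, and *Pdgfra* and *Postn* were not well above background in PH. Of 15 leukocyte markers, 0 rose and 12 fell (median -3.04), with sums of 1888, 1216, 18591 and 2616 in EH and 355, 347, 283 and 369 in PH. EH sample 6 held by far the highest sum, and *Csf1r* gave the highest signal at both stages. 13 of the 15 were not well above background on any PH microarray, and without EH sample 6, 10 fell. Of 14 erythroid genes with a probe, 1 rose and 9 fell (median -4.11), with sums of 69360.1, 22355, 124697 and 28729 in EH and 2072, 1489.8, 2050.5 and 1726 in PH, led by *Hba-a2*. The exception was *Tfrc*, the transferrin receptor, and *Alas2*, *Ahsp*, *Hbb-bs* and *Hbb-y* were not well above background in PH.

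Of 10 epicardial markers, 0 rose and 9 fell (median -2.95), with sums of 2843, 2495, 3909.7 and 3286 in EH and 918, 808, 830.1 and 927 in PH, led by *Krt18*. Of 8 smooth muscle and pericyte markers 0 rose and 6 fell, with sums of 3898, 4093, 3492 and 3829 and 3531, 3277, 2971 and 2589, led by *Mcam*, and *Pdgfrb*, *Rgs5* and *Notch3* were not well above background in PH. Of 10 pacemaker markers, 1 rose and 4 fell, with sums of 12794, 7396, 8304 and 12024 and 8147, 6893, 6361 and 7973, led by *Cpne5*, and the defining *Hcn4* and *Isl1* were not well above background on any EH or PH microarray. The 1 rise, of *Ntm*, did not pass without EH sample 2, 3, 6 or 8 or without PH sample 3, 4 or 5. Of 12 neural and Schwann cell markers, 3 rose and 1 fell, with sums of 583, 457, 498 and 514 and 2512, 2934, 2797 and 2529. The highest signal was that of *Dbh*, the noradrenaline-forming enzyme, which rose by 3.12 on the log2 scale (adjusted p = 1.2e-06), while the defining *Sox10* and *S100b* were not well above background on any EH or PH microarray. EH cells were gated on ERBB-2 and PH cells were depleted of other cells before the sort, and these routes cannot be told apart from the stage. Per the study's methods, blood cells of dissociated hearts were either lysed or stained so that they could be left out, without saying which was done for these sorts. The part of other cell types in the falls of smooth muscle, KATP channel, matrix, immune, immediate-early, imprinted and cell cycle genes was not tested. Nor was the part of ventricular cells in the falls of ventricular genes.

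**Figure D4:**
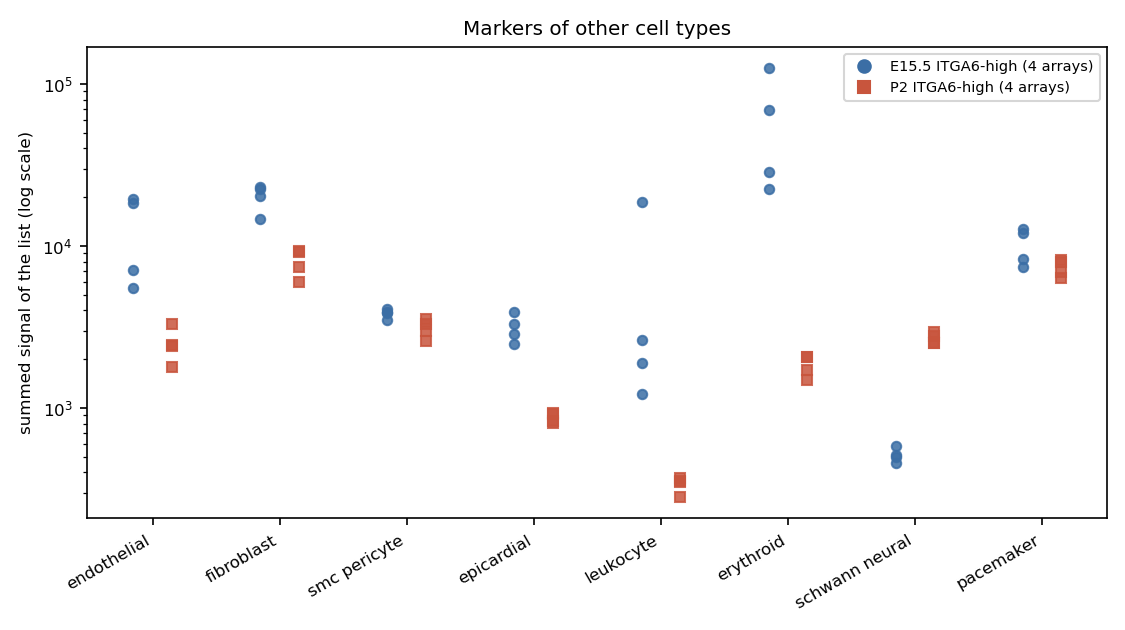
Summed signal of each marker list of other cell types (log axis) on each EH (blue circles) and PH microarray (red squares). The endothelial, fibroblast, epicardial, leukocyte and erythroid sums of PH lie below all EH sums, and the leukocyte sum of EH sample 6 stands apart.

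The ITGA6-low cells of the same stages, sorted by the same 2 routes, allowed the stage changes of both fractions to be compared. From EL to PL, 892 probes (1.60%) were called higher and 1201 (2.16%) lower. Of the 723 probes higher in PH, 324 were also higher in PL, which is 44.8% of the ITGA6-high list and 36.3% of the ITGA6-low list. Of the lower probes 591 were shared (50.6% and 49.2%). The contrasts share no microarrays. EL samples 2 and 8 lay on slide 1, EL samples 3 and 6 on slide 3 and all PL samples on slide 2. Both fractions of a stage carry the same sample numbers, and whether a shared number means a shared pool of hearts is not stated in the labels. Per the paper, dissociated E15.5 hearts were sorted into both fractions. Sample 6 held the highest erythroid sum in EH (124697) and in EL (114987), and also the highest leukocyte sums (18591 and 3525). The fractions may therefore not be independent, which the tests here take them to be. With the experiment as a random block, 812 probes differed in the test below, against 670 without it. A test of the difference itself called 335 probes (0.602%) whose change was more positive in ITGA6-high cells and 335 (0.602%) whose change was more negative.

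Several ventricular genes changed differently in the fractions. Over all named genes, 2.99% changed more positively and 2.35% more negatively in ITGA6-high than in ITGA6-low cells at an adjusted p of at most 0.05. Of the 12 ventricular genes, 7 changed more negatively and 0 more positively. *Irx3* had log2 changes of -3.23 in ITGA6-high and 1.66 in ITGA6-low cells (difference -4.88 ± 0.30 (SE), adjusted p = 2.0e-06). *Irx5*, which was well above background on all EH and all PL but on no EL or PH microarrays, differed in the same direction (adjusted p = 0.000633). For *Myh7* the values were -3.87 and -1.04 (difference -2.83, adjusted p = 2.3e-06) and for *Myl2* they were -2.02 and 0.00 (difference -2.02, adjusted p = 0.000114). *Myl2* ranked from 8 to 11 on the EL and PL microarrays, where quantile normalization fixes the values, so that the 0.00 reflects its rank. With the 75th percentile scaling its changes were -2.18 and 0.40, the latter with an adjusted p of 0.189 (difference -2.58, adjusted p = 7.8e-05). *Myh6* rose in ITGA6-low cells by 1.98 on the log2 scale, where its EL mean was 69333 ± 9107, while it was already high in EH (difference -1.93, adjusted p = 6.5e-06). *Pln* likewise rose in ITGA6-low cells (1.97, difference -1.83, adjusted p = 0.00182).

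Of the 20 atrial genes, 5 changed more positively in ITGA6-high cells and 0 more negatively. *Myl4*, the atrial light chain that fetal ventricles also express, had log2 changes of -0.01 and -3.31 (difference 3.30, adjusted p = 0.00269). *Dkk3* had 2.03 and -0.23 (difference 2.26, adjusted p = 0.0215). Without both number 2 samples the difference of *Dkk3* did not pass (adjusted p = 0.0639). The test of *Nr2f2* also passed (adjusted p = 0.00537), but no PL microarray measured it well above background, so that its size has an unmeasured side, and under normexp background correction it did not pass (adjusted p = 0.0807).

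The fatty acid list had a smaller median in ITGA6-high cells. Of its 37 genes, 23 changed less positively in ITGA6-high than in ITGA6-low cells and 1 more positively, with list medians of 0.86 and 1.71. *Ckmt2* had log2 changes of 2.29 and 3.96 (difference -1.67, adjusted p = 0.000229). *Mb* was the other way round, with 4.39 in ITGA6-high and 2.31 in ITGA6-low cells (difference 2.08, adjusted p = 0.000168). For the cell cycle list, 0 genes differed positively and 1 negatively, with medians of -0.56 and -0.85. *H19* had log2 changes of -1.71 and -5.33 (difference 3.63, adjusted p = 0.00023). Of the immediate-early list, 6 genes changed more negatively in ITGA6-high cells, and in ITGA6-low cells the median was -0.19.

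Where all 16 microarrays measured a probe well above background, the largest positive differences belonged to *Mbp*, the myelin basic protein gene, with log2 changes of 2.12 in ITGA6-high and -2.11 in ITGA6-low cells, and to *Adamts8* (3.04 and -0.89), *Dapk2* (3.48 and -0.26), *Adamts15* (3.10 and -0.61) and *Prss23* (2.33 and -1.34), a matrix protease pair, a death-associated kinase and a serine protease (adjusted p of the differences = 2.5e-06, 2.0e-05, 3.2e-05, 6.3e-05 and 2.1e-06). *Adamts8* measured 724, 619, 547 and 469 in EH and 3621, 4223, 6728 and 5152 in PH. The largest negative differences belonged to *Dcpp3* (-2.77 and 2.27), *Irx3*, *Mapt*, the microtubule protein tau (-0.51 and 3.47), *Icam2*, an endothelial adhesion molecule (-5.08 and -1.10), and *Smyd2*, a lysine methyltransferase (-3.56 and 0.34) (adjusted p = 0.00103, 2.0e-06, 0.000144, 0.0436 and 1.1e-07). The difference of *Icam2* did not pass without EH sample 6 or 8 or without PH sample 2, 3 or 4 (adjusted p from 0.0615 to 0.0902). *Smyd2* measured 5272, 5697, 5801 and 7476 in EH and 611, 414, 553 and 487 in PH.

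**Figure D5:**
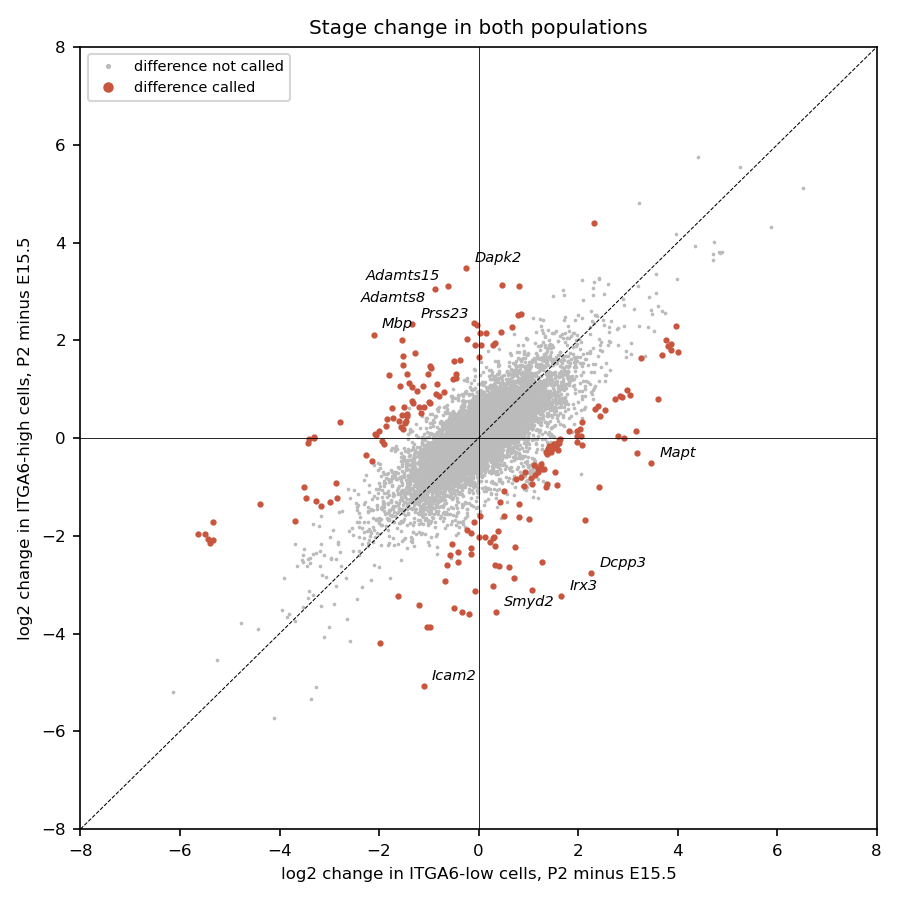
Log2 change from E15.5 to P2 in ITGA6-low (horizontal) and ITGA6-high cells (vertical) for the 17199 probes with a signal well above background throughout. Red points passed the test of the difference at 3-fold or more, the dashed line marks equal change, and the 10 genes named in the text are labelled.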

How the data were processed

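RNA from FACS-sorted CD1 mouse heart cells was hybridised to 16 single-colour Agilent microarrays, 4 per group, from separate sorting experiments, and p-values measure the spread between these sorted pools. The authors extracted spot intensities with Agilent Feature Extraction, normalized them by quantiles and took log2. The deposited log2 values were used, which ranked the probes as the deposited intensity values did. Probe positions are mm9 as the scanner files give them. From these values, limma 3.58.1 (R 4.3.3) estimated the group means from all 16 microarrays, with Benjamini-Hochberg adjustment over all 55681 non-control probes. A bound replaced the fold where no microarray of a group was well above background by the scanner's own flag. Gene names came from the scanner files, updated through RefSeq accession or symbol, and 33135 probes had one. The members and gene lists were chosen with earlier results of these data known. By rule, the text names 45 anchor genes and the 10 largest changes in each direction. It also names up to 4 called members per list and 5 genes per direction of the difference between fractions. Groups of the largest changes and of the called members had to be non-overlapping. A few list members count in their lists but are not reported here. Other list members were named after their values were seen. Figures used matplotlib 3.10.9. Statistics were tested on simulated data.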

Additional observations from a re-analysis of the deposited data

Results flagged for a closer look

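Dixon's ratio, the gap over the range, was used to flag a sample against the other 3 of its group. It did so in 8 of the 242 groups of signals of the 121 named genes. Groups without any microarray well above background count among the 242 but could not be flagged. The 8 can therefore not be set against the 1 in 20 groups that chance flags. EH sample 6 was the one in 4 of the 8, with *Myl4* at 298009.8, *Actc1* at 272331, *Pdk4* at 1091 and *Itpr2* at 1329. PH sample 2 was the one in 2, with *Gja5* at 11845 and *Nr3c2* at 20.7. The others were *Dcn* at 257 in PH sample 3 and *Sox11* at 101 in EH sample 8. For *Myl4* and *Actc1* the other 3 EH samples held equal values, as quantile normalization fixes the highest signals. Any step then gives the largest possible ratio, and these steps were only 0.055 and 0.13 on the log2 scale.

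For 35 named genes the test of the difference between the stage changes of ITGA6-high and ITGA6-low cells passed at 3-fold or more. The log2 change was more positive in ITGA6-high cells for *Podn* (4.97), *Mbp* (4.22), *Adamts8* (3.93), *Dapk2* (3.74), *Adamts15* (3.71), *Prss23* (3.67), *H19* (3.63), *Mlana* (3.62), *Myl4* (3.30), *Ntsr2* (2.49), *Dkk3* (2.26), *Gja5* (2.13), *Mb* (2.08), *Cnn1* (2.00), *Adm* (1.71) and *Nr2f2* (1.69). It was more negative for *Dcpp3* (-5.04), *Irx3* (-4.88), *Irx5* (-4.50), *Gm1987* (-4.06), *Lyl1* (-4.02), *Mapt* (-3.98), *Icam2* (-3.98), *Smyd2* (-3.90), *Calcr* (-3.06), *Myh7* (-2.83), *Itpr2* (-2.54), *Atf3* (-2.23), *Myl2* (-2.02), *Plac8* (-1.98), *Acta2* (-1.96), *Myh6* (-1.93), *Prdm16* (-1.90), *Pln* (-1.84) and *Ckmt2* (-1.67). For *Podn*, *Mlana*, *Ntsr2*, *Gm1987*, *Lyl1*, *Calcr*, *Plac8*, *Irx5*, *Nr2f2* and *Prdm16* a group lay partly or wholly below the level well above background, so that these sizes are as measured and not bounded. Leaving out 1 EH or PH microarray ended the call of *Gja5* (adjusted p up to 0.0687), *Icam2* (up to 0.0902), *Lyl1* (up to 0.0891), *Ntsr2* (up to 0.0607) and *Plac8* (up to 0.0804). No EL or PL microarray was left out. Under normexp background correction the differences of *Prdm16* (-0.11, adjusted p = 0.783) and *Nr2f2* (0.35, adjusted p = 0.0807) did not pass. That of *Ntsr2* also did not pass with the sample number as a block (adjusted p = 0.0734) or with the 75th percentile scaling (0.0531).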

How the results depend on the processing

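Stage, slide and sorting strategy cannot be separated under any setting. Without a limit on the fold, 5081 probes were higher and 4668 lower in PH, and 1759 changed differently between the fractions (723, 1167 and 670 with the limit). Normexp background correction with an added offset of 50, which raises dim signals and so shrinks their folds, left 183, 237 and 232. Of its calls 43.6% were higher, against 38.3% without it. The 75th percentile scaling moved the median of all probes from 0.03 to 0.19. Leaving out 1 EH or PH microarray gave 665 to 761 higher, 1090 to 1242 lower and 590 to 692 different. No EL or PL microarray was left out. With the 8 EH and PH microarrays alone, 694 were higher and 1064 lower. The methods' test, an analysis of variance with a post-hoc test, called 702 and 1115. EH and PH share only the numbers 2 and 3, whose deviations correlated at 0.322 and 0.0388 over 17199 probes, and nothing in the labels makes them a pair. The sample number as a replicate block gave 767, 1008 and 752, and under it *Fgf12*, *Kcnj3* and *Nr3c2* no longer passed (adjusted p = 0.137, 0.224 and 0.107), nor did the difference of *Ntsr2* (0.0734). Under the block 3 sarcomere genes fell in place of 5 and 2 neural markers in place of 1. With the experiment as a random block 812 changed differently. Of 103 named genes past the threshold, 0 reversed and 96 passed under every alternative run. Directions turned only in genes that did not pass, *Actc1* (0.13) and *Cox8a* (-0.12) under the 75th percentile scaling, *Myh6* (-0.09) under the block, *Cox8a* without PH sample 5 (-0.01 to 0.06 over the samples left out) and *Myl4* under the scaling (0.20), without EH sample 6 (0.01), PH sample 2 (0.02) or PH sample 4 (0.04; -0.06 to 0.04 over the samples left out), or without both number 2 samples (0.02), a setting chosen after seeing the data. The cause of these changes was not tested. Signal over background limited the folds of the dim genes, and 4 microarrays per group limit the precision.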
